A study of Mus musculus with 8 samples.

Results

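The genes described here are 42 mouse genes of DNA replication and S phase, taken by gene symbol from the 27179 rows of a deposited RNA-seq count matrix. All 42 were found, and all 42 were among the 13184 genes that passed the filter on low counts. The 8 libraries came from C57BL/6 mouse natural killer (NK) cells, enriched with anti-CD49b (DX5) microbeads from spleen, bone marrow and blood. They formed 4 groups of 2 libraries, namely CIS-/- cells in vitro, wild-type cells in vitro, CIS-/- cells ex vivo and wild-type cells ex vivo. CIS, encoded by Cish, is a cytokine-induced inhibitor of receptor signalling of the SOCS family, and the study asked how NK cells behave without it. The labels name no allele, animal age, culture medium, cytokine or time in culture, and do not say whether the 2 libraries of a group came from separate mice or cultures. The p-values therefore measure the spread between these libraries, which may be technical.

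A cell copies its genome once per division. Origins are licensed in G1 when ORC, CDC6 and CDT1 load the MCM helicase on chromatin, and in S phase CDC45 and GINS complete the active helicase. Primase and the DNA polymerases then synthesise DNA with the sliding clamp PCNA and its loader RFC, FEN1 and LIG1 join the lagging-strand fragments, and ribonucleotide reductase, thymidylate synthase and thymidine kinase supply nucleotides. Many of these genes are transcribed under E2F factors, which are released as cells pass from G1 into S phase. Resting NK cells divide little, and NK cells divide readily in culture with cytokines such as IL-2 or IL-15.

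Total counts per library were between 21485710 and 28065268. The 42 genes together took 0.279% and 0.283% of the counts in CIS-/- in vitro libraries, 0.295% and 0.323% in wild-type in vitro libraries, 0.165% and 0.184% in CIS-/- ex vivo libraries and 0.177% in each wild-type ex vivo library. The lowest count of any of them in a library was 13, for Orc1, and the highest was 8812. Cish itself had 21.2 and 17.2 CPM (counts scaled to a common library size) in CIS-/- in vitro libraries, against 219.8 and 201.9 CPM in wild-type in vitro libraries. Ex vivo it had 1.29 and 2.64 CPM in CIS-/- libraries, against 9.26 and 9.12 CPM in wild-type libraries, so it was lower in CIS-/- cells in both states. All 12 listed NK markers were present in every library at 7.13 CPM or more, but their levels differed between groups. On culture 9 of the 12 were lower and 2 higher in each genotype (edgeR adjusted p of 0.05 or below). Of all tested genes 37.5% were lower and 34.8% higher in CIS-/- cells, and 31.6% lower and 32.1% higher in wild-type cells. In vitro 3 of the 12 were higher and 2 lower in CIS-/- than in wild-type cells, where 11% and 14.6% of all tested genes were. Itga2 averaged 8.57 CPM in CIS-/- and 19.7 CPM in wild-type libraries in vitro, against 240 and 275 CPM ex vivo. In 12 of the 42 genes another annotated gene overlaps the same stretch of the genome (Orc1, Mcm7, Cdc45, Gins2, Rfc4, Fen1, Lig1, Tk1, Ung, Ccne2, E2f1 and Chaf1a). The strand setting of the counting is not given in the sources used here, so reads shared with those neighbours cannot be told apart. In bulk RNA, a change in the share of cycling cells and a change in RNA per cell also cannot be told apart.

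E2F sites are the best-known shared feature of these promoters, and 4 of them are printed to show the words searched, in the order in which the genes changed on culture in wild-type cells. RefSeq windows (GRCm38.p6) of 250 bases before to 50 bases after the start were available for 34 of the 42 genes. The words TTTCCCGC, TTTCGCGC, TTTGCCGC and TTTGGCGC, on either strand and counted where they overlapped, occurred in 12 of the 34 windows (35.3%), against 425 of the 10007 windows of tested genes (4.25%) and 626 of all 27025 windows (2.32%). The windows printed are the 170 bases before the start, in the direction of transcription, with every match in capitals, for genes with a match there and at most 30 of those bases in annotated exons. Cdc6 has 1 match, at chr11:98907981-98908150 (plus strand). The start listed for Cdc6 lies inside the counted gene, which begins at base 98907709, so its window is within the gene and not before the first start. The Pola1 window likewise lies within its gene, which on the minus strand begins at base 93632387. The Mcm5 window lies partly within its gene, which begins at base 75109468. Mcm5 has 2 overlapping matches, at chr8:75109339-75109508 (plus strand). Pola1 has 1, at chrX:93632156-93632325 (minus strand), and Mcm6 has 3, of which 2 overlap, at chr1:128359706-128359875 (minus strand).
Cdc6: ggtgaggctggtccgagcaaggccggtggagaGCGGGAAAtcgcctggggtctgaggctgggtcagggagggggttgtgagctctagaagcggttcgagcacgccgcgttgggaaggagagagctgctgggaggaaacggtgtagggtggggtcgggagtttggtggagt
Mcm5: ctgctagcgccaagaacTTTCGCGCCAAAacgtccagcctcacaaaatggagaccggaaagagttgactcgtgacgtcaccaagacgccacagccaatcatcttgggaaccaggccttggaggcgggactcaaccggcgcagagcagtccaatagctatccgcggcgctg
Pola1: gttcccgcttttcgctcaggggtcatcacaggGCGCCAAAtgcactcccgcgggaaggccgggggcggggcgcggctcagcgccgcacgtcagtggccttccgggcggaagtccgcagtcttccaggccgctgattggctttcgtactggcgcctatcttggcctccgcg
Mcm6: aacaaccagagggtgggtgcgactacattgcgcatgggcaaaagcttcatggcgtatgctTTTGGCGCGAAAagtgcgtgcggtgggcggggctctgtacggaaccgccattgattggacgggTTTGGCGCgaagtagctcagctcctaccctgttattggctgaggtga
The CCAAT box word CCAAT was found in 20 of the 34 windows (58.8%), against 39.2% of tested genes. The Sp1 word GGGCGG was found in 25 (73.5%), against 63.7% of tested genes. The cell cycle homology word TTTGAA, known from promoters of genes that peak in G2 and mitosis, was found in 4 (11.8%), against 12.3% of tested genes. In 26 windows of a list of G2/M genes the proportions were 3.85% for the E2F words and 76.9% for TTTGAA. A match is a word in the sequence and does not show that a factor binds there.

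Culture moved most of these genes up. In CIS-/- cells 32 of the 42 rose in vitro, 2 fell and 8 did not pass (edgeR quasi-likelihood test, adjusted p of 0.05 or below), while 72.4% of all tested genes passed (34.8% higher, 37.5% lower). In wild-type cells 34 rose, 2 fell and 6 did not pass, while 63.7% of all tested genes passed (32.1% higher, 31.6% lower). The median log2 fold change of the 42 was 1.15 in CIS-/- and 1.03 in wild-type cells, where the median over all tested genes was -0.05 and -0.0025. Both genotypes shared 31 genes that rose and the 2 that fell, Cdt1 and E2f2. Levels at least 4-fold higher in vitro were seen for 11 genes in CIS-/- cells (Orc1, Cdc6, Mcm10, Cdc45, Gins2, Rrm2, Tyms, Tk1, Ccne2, E2f1 and Uhrf1) and for the same genes without E2f1 in wild-type cells.

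**Figure D1:**
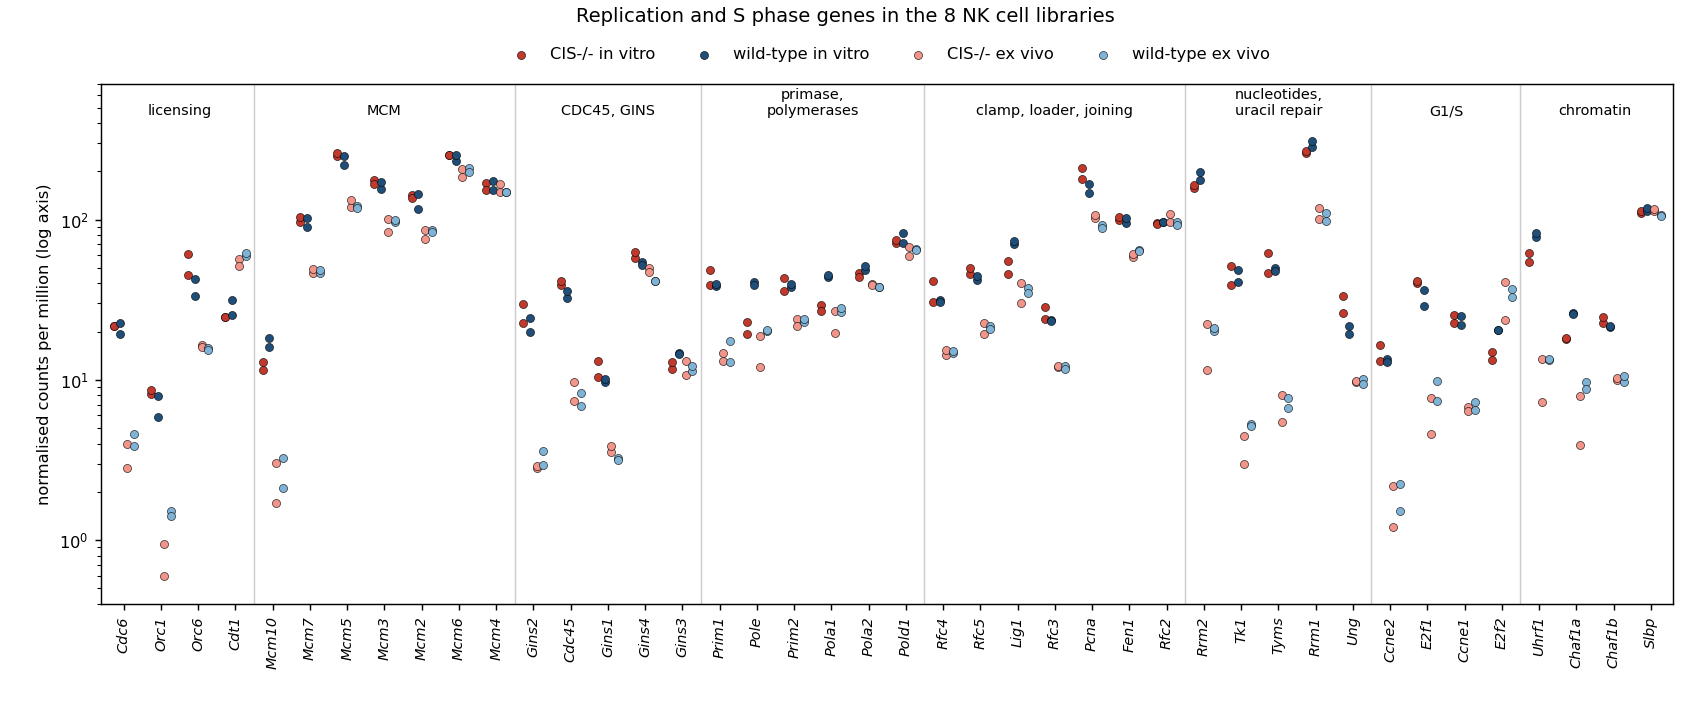
Normalised CPM (log axis) of each of the 42 genes, 1 point per library, with the 2 libraries of each group in its own colour and genes grouped by role. In vitro libraries lie above ex vivo libraries for most genes, while Cdt1 and E2f2 lie lower in vitro and Mcm4, Rfc2 and Slbp hardly separate.

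Among the origin licensing factors, Cdc6, the ATPase that helps ORC load the helicase, rose by a log2 fold change of 2.66 (SE 0.185) in CIS-/- and 2.30 (SE 0.179) in wild-type cells. Orc1, the largest ORC subunit, rose by 3.42 (SE 0.271) in CIS-/- and 2.23 (SE 0.248) in wild-type cells on the log2 scale. Orc6, the smallest ORC subunit, had 45.3 and 60.9 CPM in CIS-/- in vitro libraries and 16.4 and 16.1 CPM in CIS-/- ex vivo libraries, with 33.2 and 42.6 CPM in wild-type in vitro and 15.9 and 15.4 CPM in wild-type ex vivo libraries. Every in vitro library lay above every ex vivo library, and Orc6 rose by 1.71 (SE 0.168, edgeR adjusted p = 3.33e-05) and 1.27 (SE 0.168, 0.00026) on the log2 scale in CIS-/- and wild-type cells. Cdt1 loads MCM together with CDC6 and is held in check by geminin. It had 24.8 and 24.8 CPM in CIS-/- in vitro libraries, against 56.4 and 51.5 CPM in CIS-/- ex vivo libraries, and 25.3 and 31.6 CPM in wild-type in vitro, against 59.1 and 62.2 CPM in wild-type ex vivo libraries. The 4 in vitro libraries all lay below the 4 ex vivo ones, and Cdt1 fell by 1.12 (SE 0.12, adjusted p = 5.4e-05) in CIS-/- and by 1.09 (SE 0.119, 9.05e-05) in wild-type cells, opposite to the 3 other licensing genes.

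The MCM helicase genes, which encode the ring that unwinds DNA, changed by smaller amounts. Mcm5 had 251 and 262 CPM in CIS-/- in vitro libraries and 121 and 132 CPM in CIS-/- ex vivo libraries, with 219.7 and 249 CPM in wild-type in vitro and 122 and 118 CPM in wild-type ex vivo libraries. It rose by 1.02 (SE 0.0976, edgeR adjusted p = 2.82e-05) and 0.97 (SE 0.0975, 5.95e-05) on the log2 scale in CIS-/- and wild-type cells, and the groups did not overlap. Mcm6, whose window holds 3 of the searched words, had 254 and 253 CPM in CIS-/- in vitro libraries, against 185 and 208 CPM in CIS-/- ex vivo, and 232 and 254 CPM in wild-type in vitro, against 210.4 and 199 CPM in wild-type ex vivo libraries. Its change of 0.37 (SE 0.0974, adjusted p = 0.00817) passed in CIS-/- cells and its 0.24 (SE 0.0973, 0.0538) in wild-type cells did not, and the difference between these changes did not pass (interaction 0.12, adjusted p = 0.654). With library totals in place of TMM scaling the CIS-/- call was also lost (0.25, adjusted p = 0.0522). Mcm2, Mcm3 and Mcm7 rose by 0.62 to 1.07 in both genotypes, and Mcm4 had 0.03 in CIS-/- and 0.14 in wild-type cells, neither past the threshold. Mcm10, which is not part of the ring but helps activate it, rose by 2.35 (SE 0.275) in CIS-/- and 2.67 (SE 0.27) in wild-type cells.

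CDC45 and GINS turn the loaded MCM ring into the moving helicase. Cdc45 had 38.9 and 41.2 CPM in CIS-/- in vitro libraries, against 7.41 and 9.64 CPM in CIS-/- ex vivo, and 32.6 and 35.9 CPM in wild-type in vitro, against 8.25 and 6.87 CPM in wild-type ex vivo libraries. It rose by 2.23 (SE 0.151, edgeR adjusted p = 4.8e-06) and 2.18 (SE 0.152, 7.84e-06) in CIS-/- and wild-type cells, with every in vitro library above every ex vivo one. The 4 GINS genes encode 1 tetramer and yet moved unequally. In CIS-/- cells Gins2 rose by 3.20 (SE 0.198) and Gins1 by 1.66 (SE 0.168) on the log2 scale. In wild-type cells the values were 2.77 (SE 0.194) for Gins2 and 1.62 (SE 0.169) for Gins1. Gins3 had log2 fold changes of 0.05 and 0.31 and passed in neither genotype. Gins4 had 57.4 and 62.6 CPM in CIS-/- in vitro libraries, against 49.8 and 47.0 CPM in CIS-/- ex vivo, and 54.4 and 52.3 CPM in wild-type in vitro, against 41.3 and 41.1 CPM in wild-type ex vivo libraries. It rose by 0.31 (SE 0.0888, edgeR adjusted p = 0.0124) and 0.37 (SE 0.0891, 0.00618), but with the trend in gene length removed the value in CIS-/- cells turned to -0.14 (adjusted p = 0.0955) and that in wild-type cells was 0.06 (0.462). The wild-type call was also lost without wild-type in vitro replicate 1 (0.31, adjusted p = 0.0677). The CIS-/- call was lost with library totals (0.18, adjusted p = 0.0802), in a fit of the compared groups alone (0.32, 0.0649), without CIS-/- in vitro replicate 2 (0.25, 0.0531) and without CIS-/- ex vivo replicate 2 (0.27, 0.0508).

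Of the 6 primase and polymerase genes, 2 rose on culture in CIS-/- cells, where 34.8% of all tested genes did, and 5 in wild-type cells, where 32.1% did. Primase makes the short RNA primers, and its subunit genes Prim1 (log2 fold changes of 1.66 in CIS-/- and 1.36 in wild-type cells) and Prim2 (0.79 and 0.71) rose in both. Pole encodes the catalytic subunit of the leading-strand polymerase, Pola1 and Pola2 the catalytic and the accessory subunit of the priming polymerase, and Pold1 the catalytic subunit of the lagging-strand polymerase. In wild-type cells Pole (0.97, SE 0.182, edgeR adjusted p = 0.00178), Pola1 (0.71, SE 0.14, 0.00241) and Pola2 (0.40, SE 0.0861, 0.00385) rose. In CIS-/- cells their log2 fold changes were 0.46 (adjusted p = 0.0532), 0.28 (0.11) and 0.21 (0.0586), none past the threshold. The difference between the genotypes' changes did not pass for any of the 3 (interaction adjusted p = 0.315 for Pole, 0.281 for Pola1 and 0.427 for Pola2). With the length trend removed all 3 passed as higher in CIS-/- cells too, at 1.20 (adjusted p = 3.8e-05), 0.72 (0.000409) and 0.24 (0.0195). Pola2 had 46.5 and 43.7 CPM in CIS-/- in vitro libraries, against 39.4 and 38.9 CPM in CIS-/- ex vivo, and 48.4 and 51.2 CPM in wild-type in vitro, against 38.0 and 37.7 CPM in wild-type ex vivo libraries. Pold1 had 71.9 and 75.0 CPM in CIS-/- in vitro, against 59.1 and 67.3 CPM in CIS-/- ex vivo libraries, and 71.4 and 82.0 CPM in wild-type in vitro, against 65.9 and 64.8 CPM in wild-type ex vivo libraries. The in vitro and ex vivo libraries of neither gene overlapped within a genotype, and for Pold1 the log2 fold changes of 0.22 (SE 0.104, adjusted p = 0.09) and 0.23 (SE 0.104, 0.0795) did not pass.

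Of the clamp, its loader and the fragment-joining enzymes, 6 of 7 rose in each genotype. The share of all tested genes that rose was 34.8% in CIS-/- and 32.1% in wild-type cells. Pcna, the sliding clamp and a common marker of proliferating cells, had 179.7 and 209 CPM in CIS-/- in vitro libraries, against 103 and 107 CPM in CIS-/- ex vivo, and 146 and 167 CPM in wild-type in vitro, against 92.1 and 88.9 CPM in wild-type ex vivo libraries. It rose by 0.89 (SE 0.109, edgeR adjusted p = 0.000112) and 0.79 (SE 0.109, 0.000331) in CIS-/- and wild-type cells, with all in vitro libraries above all ex vivo ones. The clamp loader genes Rfc3, Rfc4 and Rfc5 rose by 0.97 to 1.28 in both genotypes. Rfc2, the remaining small subunit of the loader listed, had 95.1 and 94.0 CPM in CIS-/- in vitro libraries, against 108 and 97.0 CPM in CIS-/- ex vivo, and 96.1 and 96.8 CPM in wild-type in vitro, against 96.5 and 92.5 CPM in wild-type ex vivo libraries. Its log2 fold changes of -0.11 (SE 0.0872, adjusted p = 0.268) and 0.03 (SE 0.0871, 0.782) did not pass, and with the length trend removed they were -0.50 (0.000178) and -0.25 (0.0127). Fen1, which trims the lagging-strand fragments, rose by 0.76 and 0.63, and Lig1, the ligase that seals them, by 0.52 (SE 0.149, adjusted p = 0.0119) and 0.99 (SE 0.148, 0.00052) in CIS-/- and wild-type cells. The CIS-/- call of Lig1 was lost without CIS-/- in vitro replicate 1 (0.38, adjusted p = 0.0816) and without CIS-/- ex vivo replicate 1 (0.33, 0.0563).

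All 5 genes of nucleotide supply and uracil repair rose in both genotypes, where 34.8% of all tested genes rose in CIS-/- and 32.1% in wild-type cells. Their median log2 fold change was 2.99 in CIS-/- and 2.77 in wild-type cells, the highest of the 8 role groups. Rrm2, the subunit of ribonucleotide reductase whose level is known to vary with the cell cycle, had 156 and 165 CPM in CIS-/- in vitro libraries, against 11.5 and 22.3 CPM in CIS-/- ex vivo, and 177 and 199 CPM in wild-type in vitro, against 20.2 and 20.9 CPM in wild-type ex vivo libraries. It rose by 3.24 (SE 0.252, edgeR adjusted p = 9.73e-06) and 3.19 (SE 0.249, 1.46e-05), and its lowest library was CIS-/- ex vivo replicate 1. Rrm1, the large subunit of the same enzyme, had 262 and 269 CPM in CIS-/- in vitro libraries, against 101 and 118 CPM in CIS-/- ex vivo, and 286 and 309.6 CPM in wild-type in vitro, against 98.7 and 110.0 CPM in wild-type ex vivo libraries. The groups did not overlap, and Rrm1 rose by 1.27 (SE 0.109) in CIS-/- and 1.51 (SE 0.109) in wild-type cells. Tk1, the salvage kinase for thymidine, rose by 3.59 (SE 0.21) in CIS-/- and 3.09 (SE 0.202) in wild-type cells. Tyms, which makes thymidylate and has 1 listed pseudogene that could share reads, rose by 2.99 (SE 0.201) and 2.77 (SE 0.198).

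The G1/S regulators held the other gene that fell. E2f1, an activating E2F factor, had 40.2 and 41.6 CPM in CIS-/- in vitro libraries, against 4.56 and 7.75 CPM in CIS-/- ex vivo, and 28.9 and 36.4 CPM in wild-type in vitro, against 9.89 and 7.34 CPM in wild-type ex vivo libraries. It rose by 2.72 (SE 0.243, edgeR adjusted p = 2.02e-05) and 1.92 (SE 0.234, 0.000169) in CIS-/- and wild-type cells. E2f2, its close relative, had 14.9 and 13.4 CPM in CIS-/- in vitro libraries, against 23.7 and 40.6 CPM in CIS-/- ex vivo, and 20.3 and 20.4 CPM in wild-type in vitro, against 37.1 and 32.8 CPM in wild-type ex vivo libraries. It fell by 1.19 (SE 0.221, adjusted p = 0.00127) and by 0.78 (SE 0.215, 0.0125), so the 2 activating E2F genes listed moved oppositely in these libraries. The wild-type call of E2f2 was lost with the length trend removed (-0.38, adjusted p = 0.0851), without wild-type in vitro replicate 2 (-0.78, 0.0561) and without wild-type ex vivo replicate 1 (-0.68, 0.0775). Ccne1 and Ccne2 encode the E-type cyclins that activate CDK2 at S phase entry, and rose by 1.86 and 3.12 in CIS-/- and by 1.77 and 2.81 in wild-type cells.

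Of the chromatin genes, Uhrf1, which couples DNA methylation to replication, had 62.1 and 54.6 CPM in CIS-/- in vitro libraries, against 7.28 and 13.5 CPM in CIS-/- ex vivo, and 78.2 and 82.8 CPM in wild-type in vitro, against 13.3 and 13.5 CPM in wild-type ex vivo libraries. It rose by 2.48 (SE 0.229, edgeR adjusted p = 2.36e-05) and 2.59 (SE 0.225, 2.62e-05). The CAF-1 genes Chaf1a (1.60 and 1.51) and Chaf1b (1.23 and 1.09), which encode subunits of the chaperone that places histones behind the fork, rose in CIS-/- and wild-type cells too. Slbp, which binds the end of histone mRNAs, had 110.0 and 114 CPM in CIS-/- in vitro libraries, against 114 and 117 CPM in CIS-/- ex vivo, and 113 and 119 CPM in wild-type in vitro, against 107 and 106 CPM in wild-type ex vivo libraries. Its log2 fold changes of -0.04 (SE 0.0807, adjusted p = 0.645) and 0.13 (SE 0.0806, 0.197) did not pass, and with the length trend removed they were -0.51 (0.000601) and -0.20 (0.0719). Over all alternatives in which they were tested, 31 of the 34 CIS-/- calls and 34 of the 36 wild-type calls kept their direction and passed.

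**Figure D2:**
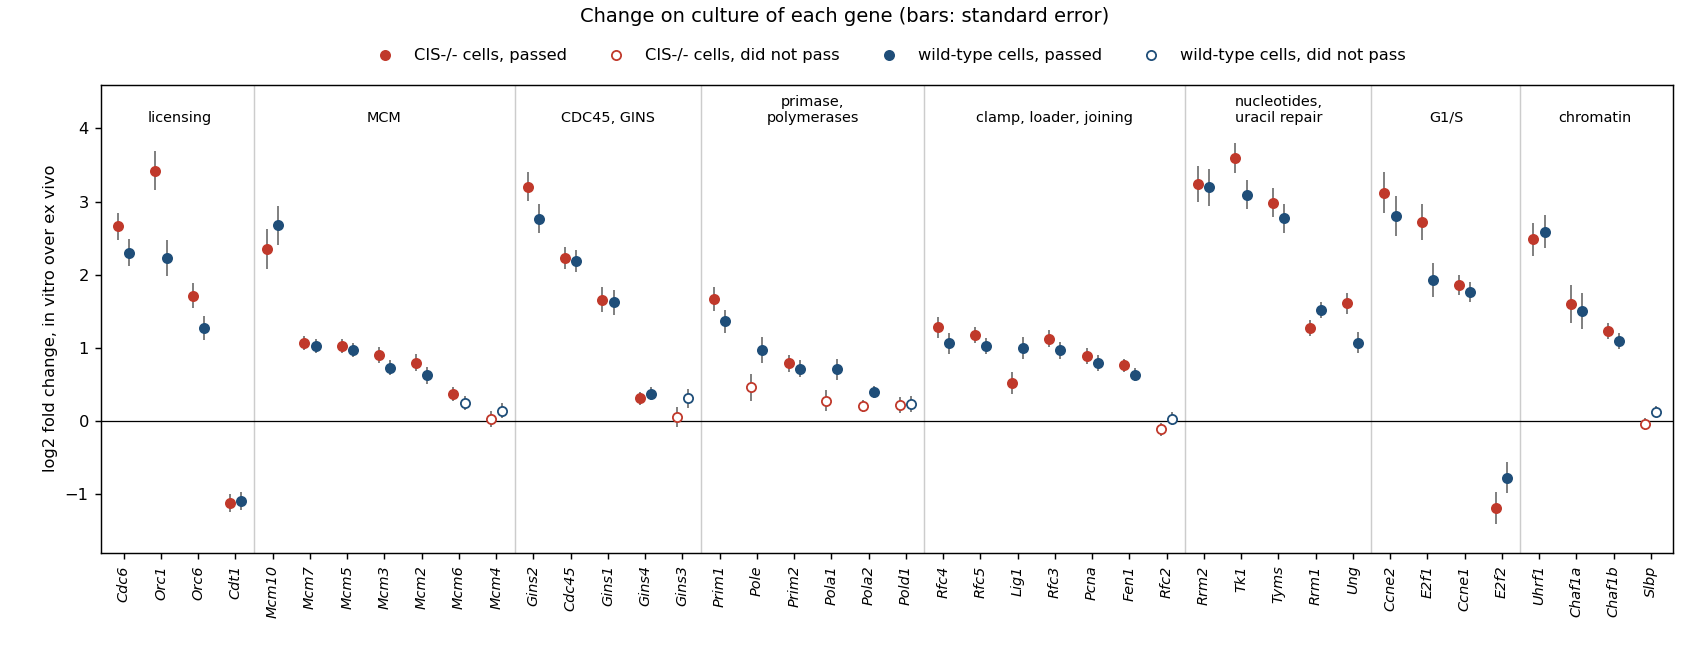
Log2 fold change, in vitro over ex vivo, of each of the 42 genes in CIS-/- cells (red) and wild-type cells (blue), with bars of 1 standard error on each side. Filled points passed the edgeR test and open points did not, and Tk1 in CIS-/- cells is the highest at 3.59.

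On the per-length scale of the deposited log2 RPKM files, which hold 41 of the 42 genes (Pola1 is absent), the spread among members was narrower in culture. The highest minus the lowest group mean was 5.79 log2 units in CIS-/- in vitro, 5.95 in wild-type in vitro, 8.45 in CIS-/- ex vivo and 7.24 in wild-type ex vivo cells, with medians of 4.49, 4.40, 3.34 and 3.41 log2 RPKM. Pcna was the highest of the 41 genes in all 4 groups (7.29, 7.04, 6.40 and 6.19 log2 RPKM in the same order), and Orc1 the lowest (1.50, 1.10, -2.06 and -1.06 log2 RPKM). Rrm2 ranked 3 in CIS-/- in vitro, 2 in wild-type in vitro and 23 in both ex vivo groups.

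Subunits of 1 complex lay closer together in vitro than ex vivo for several complexes, a grouping chosen after the values were seen and given as a description. Between Rrm1 and Rrm2 the difference was 0.15 and 0.21 log2 RPKM in CIS-/- in vitro libraries and 0.17 and 0.24 in wild-type in vitro libraries, with Rrm2 the higher. It was 2.18 and 1.45 in CIS-/- ex vivo and 1.36 and 1.46 in wild-type ex vivo libraries, with Rrm1 the higher. Among the 6 genes of the MCM2-7 ring the highest, Mcm6 in every library, exceeded the lowest by 1.10 and 1.06 log2 RPKM in CIS-/- in vitro and 1.24 and 1.06 in wild-type in vitro, against 1.72 and 1.79 in CIS-/- ex vivo and 1.91 and 1.76 in wild-type ex vivo libraries. For the 4 RFC genes the differences were 1.68 and 1.37 in CIS-/- in vitro and 1.82 and 1.85 in wild-type in vitro, against 2.76 and 2.56 in CIS-/- ex vivo and 2.59 and 2.56 in wild-type ex vivo libraries. GINS was uneven in every library, with Gins4 always the highest, by 3.19 and 3.16 in CIS-/- in vitro and 2.83 and 2.75 in wild-type in vitro, against 3.72 and 3.53 in CIS-/- ex vivo and 3.38 and 3.40 in wild-type ex vivo libraries, so here too all in vitro values were the smaller. The other 2 groupings did not separate in this way. Prim1, Prim2 and Pola2 spread over 0.66 and 1.06 in CIS-/- in vitro and 0.55 and 0.52 in wild-type in vitro, against 0.63 and 0.43 in CIS-/- ex vivo and 0.59 and 0.17 in wild-type ex vivo libraries, wider in vitro within CIS-/- cells. CAF-1 spread over 1.16 and 1.23 in CIS-/- in vitro and 0.48 and 0.52 in wild-type in vitro, against 2.17 and 1.16 in CIS-/- ex vivo and 0.80 and 1.05 in wild-type ex vivo libraries, overlapping between the states in CIS-/- cells. Prim1 lay above Pola2 in all 4 in vitro libraries and below it in all 4 ex vivo libraries.

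**Figure D3:**
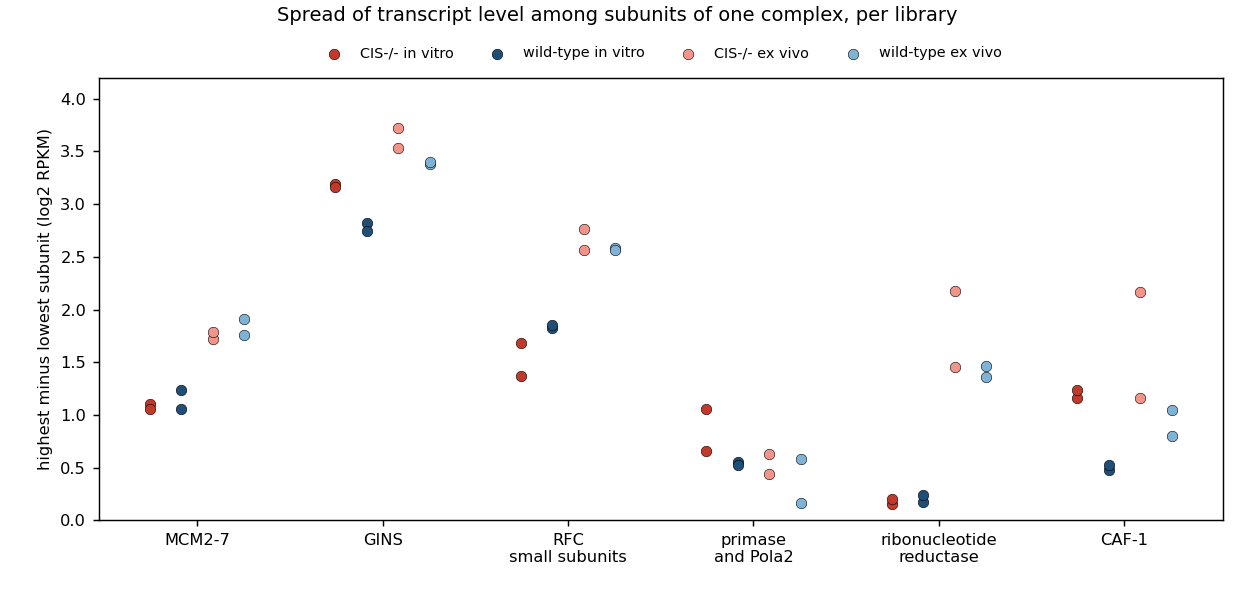
Highest minus lowest subunit level (log2 RPKM) within each of 6 complexes, 1 point per library, with groups in the order CIS-/- in vitro, wild-type in vitro, CIS-/- ex vivo and wild-type ex vivo. For MCM2-7, GINS, RFC and ribonucleotide reductase all in vitro points lie below all ex vivo points, while for primase with Pola2 and for CAF-1 they overlap.

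In vitro, CIS-/- cells differed from wild-type cells in 4 of the 42 genes. Ung rose, and Pole, Pola1 and Lig1 fell, or 2.38% higher and 7.14% lower, where 25.6% of all tested genes passed (11% higher, 14.6% lower). The median log2 fold change of the 42 was 0.05, with 26 positive and 16 negative values, and that of all tested genes was 0. With each library's trend in gene length removed the median of the 42 was -0.05, with 16 positive and 26 negative values. Another 3 genes had an unadjusted edgeR p of 0.05 or below, making 7 of the 42, against 5292 of the 13184 tested genes.

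Pole had 23.0 and 19.3 CPM in CIS-/- in vitro libraries, against 40.8 and 39.1 CPM in wild-type in vitro libraries. The groups did not overlap, and Pole fell by 0.92 on the log2 scale (SE 0.182, edgeR adjusted p = 0.0111). Pola1 had 29.4 and 26.8 CPM in CIS-/- in vitro libraries, against 44.1 and 45.1 CPM in wild-type in vitro libraries, and fell by 0.67 (SE 0.14, edgeR adjusted p = 0.013). Pola1 is on the X chromosome, and the X-linked gene Xist had 131 and 89.7 CPM in CIS-/- in vitro libraries, against 0 and 0.0351 CPM in wild-type in vitro libraries. Ex vivo Xist had 0.322 and 0.197 CPM in CIS-/- libraries, against 119.6 and 162 CPM in wild-type libraries, the opposite order to in vitro. The Y-linked gene Eif2s3y ran the other way, with 0.0385 and 0 CPM in CIS-/- in vitro, 135 and 122 CPM in wild-type in vitro, 84.9 and 70.4 CPM in CIS-/- ex vivo and 34.1 and 21.7 CPM in wild-type ex vivo libraries. Sex-linked RNA thus differed between the groups of every comparison, culture included, and for any gene, X-linked or not, it and the genotype or culture cannot be told apart here. In a fit without X- and Y-linked genes Pole, Lig1 and Ung passed, among 41 members. Lig1 had 55.3 and 45.6 CPM in CIS-/- in vitro libraries, against 70.0 and 73.8 CPM in wild-type in vitro libraries, and fell by 0.51 (SE 0.146, edgeR adjusted p = 0.036). The gene that overlaps it, 6330408A02Rik, averaged 3.37 CPM.

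Ung, which removes uracil from DNA and so keeps misincorporated bases out of the new strand, had 26.2 and 33.5 CPM in CIS-/- in vitro libraries, against 19.4 and 21.6 CPM in wild-type in vitro libraries. Both CIS-/- libraries were above both wild-type ones, and Ung rose by 0.54 (SE 0.137, edgeR adjusted p = 0.0237). Its overlapping neighbour Alkbh2 averaged 8.34 CPM. Ex vivo Ung had 9.72 and 9.83 CPM in CIS-/- libraries, against 10.1 and 9.47 CPM in wild-type libraries, with a log2 fold change of 0.00 to 2 decimals, and the difference between the 2 states did not pass (interaction 0.55, SE 0.202, adjusted p = 0.204).

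Leaving out 1 library changed how many genes of any kind passed, and the calls of these 4 with it, while their signs stayed the same. In the fit that omitted CIS-/- in vitro replicate 2, 3.7% of all tested genes passed and none of the 4 did, at -0.80 for Pole (adjusted p = 0.0947), -0.60 for Pola1 (0.0998), -0.38 for Lig1 (0.226) and 0.36 for Ung (0.158). Omitting wild-type in vitro replicate 1 left 6.41% of all genes and none of the 4, at -0.85 (0.0673), -0.65 (0.0738), -0.51 (0.128) and 0.51 (0.113) in the same order. With its partner library omitted 8.23% of all genes passed, and of the 4 only Pole did, at -0.95 (0.0475), while Pola1 had -0.65 (0.0673), Lig1 -0.47 (0.153) and Ung 0.62 (0.0678). When either wild-type ex vivo library was omitted, 14% and 13.8% of all genes passed. Pole and Pola1 passed in both of those fits, while Lig1 at -0.51 and Ung at 0.54 had adjusted p between 0.0533 and 0.0738. The count of members was 7 without CIS-/- in vitro replicate 1 (adding Orc6, Pcna and Rfc4), where 27.4% of all genes passed, and 7 without either CIS-/- ex vivo library (adding E2f2, Uhrf1 and Chaf1a), where 31.7% and 31.5% did.

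The next genes in order of p did not pass. Orc6, with 45.3 and 60.9 CPM in CIS-/- in vitro against 33.2 and 42.6 CPM in wild-type in vitro libraries, had a difference of 0.49 on the log2 scale (SE 0.16, edgeR adjusted p = 0.0547). Pcna, with 179.7 and 209 against 146 and 167 CPM in the same groups, had 0.31 (SE 0.107, adjusted p = 0.0625). E2f2 had -0.53 (SE 0.222, adjusted p = 0.111) and Uhrf1 -0.46 (SE 0.206, 0.129). For the 6 genes of the MCM2-7 ring the log2 fold changes lay between -0.03 and 0.13, with 95% intervals inside -0.27 to 0.36. The 95% interval lay within 1 log2 unit either side of 0 for 38 of the 42 genes, the exceptions being Mcm10, Pole, E2f2 and Chaf1a.

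**Figure D4:**
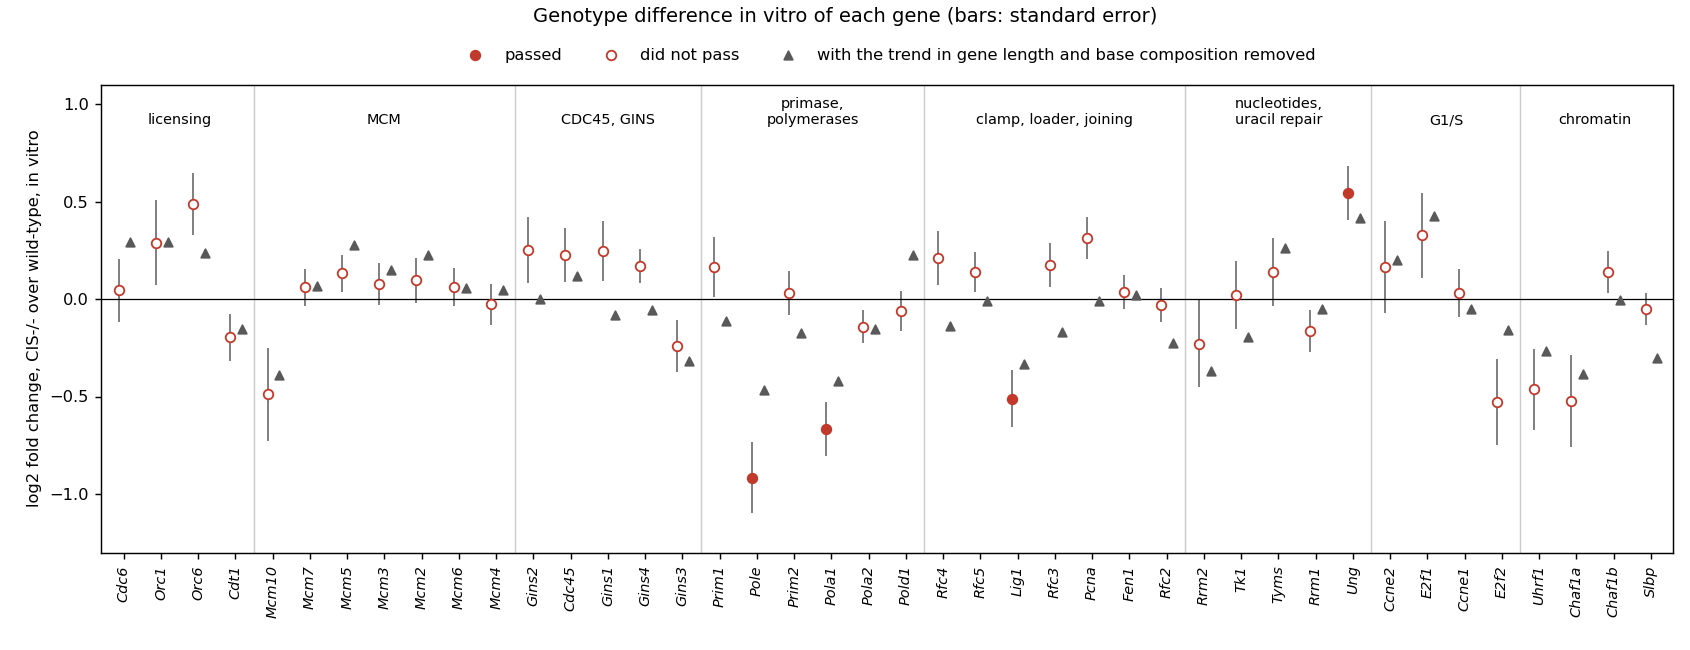
Log2 fold change, CIS-/- over wild-type in vitro, of each of the 42 genes (circles, with bars of 1 standard error on each side), and the same value after removal of the trend with length and base composition (triangles). The 4 filled circles are Pole, Pola1, Lig1 and Ung, and the triangles of all 4 lie nearer 0.

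The genotype difference in vitro ran with gene length. Across the 42 genes the Spearman correlation of log2 fold change with length was -0.584, and across all 13184 tested genes -0.461, values that describe genes of the same libraries. The 16 genes with a negative value had a median length of 3459 bases, and the 26 with a positive value 2026.5 bases. Pole is 7129, Pola1 5347, Lig1 3520 and Ung 2097 bases long in the deposited matrix. Replicates of the same group also differed by length, since replicate 1 minus replicate 2 correlated with length at 0.686 over the 42 genes in CIS-/- in vitro and at -0.584 in CIS-/- ex vivo cells, but at 0.015 in wild-type in vitro and -0.101 in wild-type ex vivo cells. With each library's trend in length and base composition removed, the values were -0.47 for Pole (edgeR adjusted p = 0.0282), -0.42 for Pola1 (0.0268), -0.33 for Lig1 (0.0631) and 0.41 for Ung (0.0418). In that fit Pcna had -0.01 and Orc6 0.24, and Rfc2 (-0.23, adjusted p = 0.0456) and Slbp (-0.30, 0.034) were lower. What produced the length trend was not tested.

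**Figure D5:**
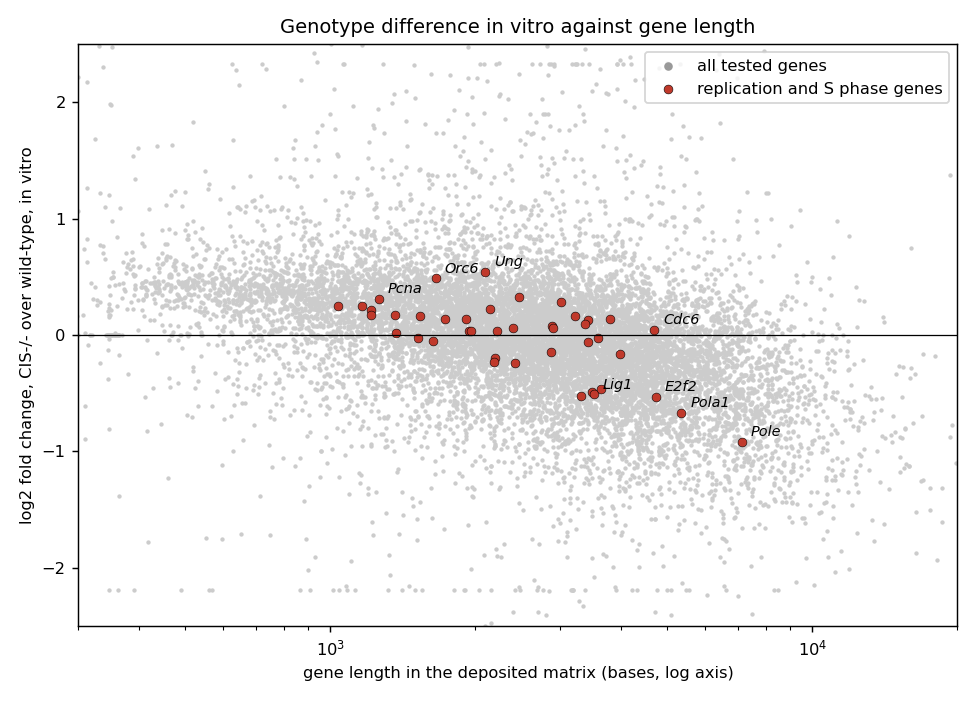
Log2 fold change, CIS-/- over wild-type in vitro, against gene length in bases (log axis) for all tested genes within the axis limits (grey) and the 42 replication genes (red). Long members such as Pole and Pola1 lie low and short members such as Pcna lie above 0, along the slope of the other genes.

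Ex vivo, none of the 42 genes passed between CIS-/- and wild-type cells by edgeR or by DESeq2, where 0.0607% of all tested genes did by edgeR (0.0303% higher, 0.0303% lower) and 0.341% by DESeq2. The lowest edgeR adjusted p was 0.714, for Orc1 (-0.91, SE 0.3), and the median log2 fold change was -0.05. Unadjusted, 3 of the 42 had an edgeR p of 0.05 or below, against 844 of the 13184 tested genes. CIS-/- ex vivo replicate 1 was the lowest of the 4 ex vivo libraries in 22 of the 42 genes. In vitro, wild-type replicate 1 was likewise the lowest of the 4 libraries in 21 of the 42. The same counts over all tested genes were not made. The median ex vivo was 0.03 without CIS-/- ex vivo replicate 1. That library also held the most B cell marker RNA (95.7 summed CPM over 10 genes, against 17.3 in CIS-/- ex vivo replicate 2 and 34.5 and 29.1 in wild-type cells ex vivo), and the part of this in the result was not tested. For the MCM2-7 ring the log2 fold changes were between -0.10 and 0.08, with 95% intervals inside -0.34 to 0.32. The interval lay within 1 log2 unit for 39 of the 42 genes, all but Orc1, E2f1 and Chaf1a. Without CIS-/- ex vivo replicate 2, Chaf1a passed as lower (-1.23, adjusted p = 0.0392).

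The change on culture did not differ between the genotypes past the threshold for any of the 42 genes by edgeR or DESeq2, where 0.137% of all tested genes passed by edgeR (0.0531% higher, 0.0834% lower) and 4.49% by DESeq2. Unadjusted, 3 of the 42 genes had an edgeR p of 0.05 or below, against 2586 of the 13184 tested genes. The largest difference was for Orc1, whose culture change was higher in CIS-/- cells by 1.20 (SE 0.371, edgeR adjusted p = 0.153), followed by E2f1 with 0.80 (SE 0.331, 0.238).

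Most other genes of the same pathway, in a list of 44 tested replication factors outside the 42, also rose on culture. In CIS-/- cells 30 were higher and 8 lower, where 34.8% and 37.5% of all tested genes were. In wild-type cells 28 were higher and 6 lower, where 32.1% and 31.6% of all tested genes were. The medians were 0.58 in CIS-/- and 0.56 in wild-type cells. Dut, which clears dUTP, rose by 2.47 in wild-type cells, Ticrr, a factor for origin firing, by 2.38, and Asf1b, a histone chaperone, by 2.11. In vitro 3 of the 44 were higher (6.82%) and 11 lower (25%) in CIS-/- than in wild-type cells, with a median of -0.05. Of all tested genes 11% were higher and 14.6% lower. Dnmt1, the maintenance DNA methyltransferase at the fork, averaged 64.1 CPM in CIS-/- and 156 CPM in wild-type in vitro libraries and fell by 1.28 (SE 0.124, edgeR adjusted p = 0.00233). Ticrr fell by 1.09, Atad5, which unloads PCNA, by 1.02, and Rfc1, the large clamp loader subunit, by 1.18. Of the 44, 5 were higher and 6 lower with the length trend removed, where 12.5% and 11.6% of all tested genes were. Without CIS-/- in vitro replicate 2, where 3.7% of all tested genes passed, 0 were higher and 2 lower (median -0.10), and without wild-type in vitro replicate 1, where 6.41% passed, 0 were higher and 3 lower (median -0.02).

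Among 19 other G1/S kinases, cyclins and E2F family genes, 16 rose and 2 fell on culture in CIS-/- cells. In wild-type cells 14 rose and 2 fell. Of all tested genes 34.8% rose and 37.5% fell in CIS-/- cells, and 32.1% rose and 31.6% fell in wild-type cells. Cdk6, a kinase that phosphorylates RB, rose by 2.28 in wild-type cells, and the repressive factor E2f7 rose by 2.65. In vitro 2 of the 19 were higher and 3 lower in CIS-/- cells, where 11% and 14.6% of all tested genes were. The E2F partner genes split, with Tfdp1 higher by 0.44 (88.5 CPM in CIS-/- against 65.2 CPM in wild-type libraries, edgeR adjusted p = 0.0129) and Tfdp2 lower at -0.93 (15.2 against 28.9 CPM, 0.00299). E2f7 (-1.02, adjusted p = 0.0103) and E2f8 (-0.99, 0.0192), both repressors, were the other 2 that fell. With the length trend removed 0 of the 19 were higher and 3 lower, where 12.5% and 11.6% of all tested genes were.

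A list of 30 G2/M and mitosis genes gives the later phase beside S phase. Their summed level was 1476 and 1538 CPM in CIS-/- in vitro, 2215 and 2112 CPM in wild-type in vitro, 180.4 and 345 CPM in CIS-/- ex vivo and 295 and 330.0 CPM in wild-type ex vivo libraries. The 42 replication genes summed to 2953 and 3081 CPM in CIS-/- in vitro and 2880 and 3161 CPM in wild-type in vitro libraries, where the groups overlapped, and to 1629 and 1804 CPM in CIS-/- ex vivo and 1722 and 1712 CPM in wild-type ex vivo libraries. On culture 28 of the 30 G2/M genes rose in CIS-/- and 30 of 30 in wild-type cells, with medians of 2.59 and 3.02. Of all tested genes 34.8% and 32.1% rose. In vitro 0 of the 30 were higher and 12 lower in CIS-/- cells, where 11% and 14.6% of all tested genes were, and the median was -0.70. With the length trend removed 11 of the 30 were lower, where 11.6% of all tested genes were, and the median was -0.58. Cenpf fell by 2.03 (SE 0.305, edgeR adjusted p = 0.00554) and Mki67, the Ki-67 proliferation antigen, by 2.15 (SE 0.412, 0.01). Without CIS-/- in vitro replicate 2, 0 of the 30 were lower past the threshold, in a fit where 2.32% of all tested genes were, against 14.6% with every library, and the median was -0.70. The number was 5 (15.9% of all genes, median -0.67) without replicate 1 of that group, and 1 (3.49%, median -0.63) without wild-type in vitro replicate 1. It was 5 (5.69%, median -0.73) without the partner of that library, and 7 (8.66%) and 6 (8.52%) without wild-type ex vivo replicates 1 and 2. It was 20 without either CIS-/- ex vivo library (17.1% and 16.9%), with medians of -0.70 in the last 4 fits. Whether the lists differed from each other was not tested.

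Markers of other cells moved with some of these comparisons, and their part in the results was not tested. The 12 T cell markers summed to 1014 and 991 CPM in CIS-/- in vitro and 391 and 321 CPM in wild-type libraries in vitro, and to 620 and 479 CPM in CIS-/- ex vivo and 582 and 594 CPM in wild-type ex vivo libraries. None of the 12 was at 0 in all 4 in vitro or all 4 ex vivo libraries. Cd4 was at 0 in CIS-/- in vitro replicate 1, and Cd8b1 and Cd5 in wild-type in vitro replicate 2. The highest were Cd3g (496 and 450 CPM) and Cd3d (241 and 272 CPM) in CIS-/- in vitro libraries, and Tcf7 and Cd28 in ex vivo libraries. In vitro 5 of the 12 were higher in CIS-/- cells past the threshold (Cd3d, Cd3e, Cd3g, Cd8a and Cd5) and 1 was lower, Tcf7. Of all tested genes 11% were higher and 14.6% lower. Cd5 was near the floor, at 1.04 and 1.00 CPM in CIS-/- against 0.139 and 0 CPM in wild-type in vitro libraries. Cd3e, a gene of the T cell receptor complex, averaged 77.7 CPM in CIS-/- and 6.69 CPM in wild-type in vitro libraries (log2 fold change 3.54, edgeR adjusted p = 0.00297). Tcf7, a transcription factor of T cells and some NK cells, averaged 57.4 CPM in CIS-/- and 96.3 CPM in wild-type in vitro libraries (-0.75, 0.0369). The 10 basophil and mast cell markers summed in vitro to 473 and 437 CPM in CIS-/- and 777 and 992 CPM in wild-type libraries. Ex vivo they summed to 167 and 113 CPM in CIS-/- and 96.3 and 92.5 CPM in wild-type libraries. All 9 tested basophil and mast cell markers lay higher in CIS-/- libraries ex vivo, without overlap between the groups (median log2 fold change 1.45). None of the 9 passed ex vivo (lowest edgeR adjusted p = 0.447). In all in vitro libraries 4 of the 10 were at 0, Fcer1a and Ms4a2 among them. Kit alone held most of the in vitro sums, with 421 and 363 CPM in CIS-/- and 748 and 955 CPM in wild-type libraries. Mcpt8 ran the other way, with 29.9 and 49.4 against 12.4 and 15.4 CPM. Of the 9 tested, 1 passed as higher and 1 as lower in CIS-/- cells in vitro. The 9 monocyte and macrophage markers in the matrix summed to 149 to 244 CPM in vitro, with 2 of 9 at 0, and to 1606 to 2257 CPM ex vivo. B cell markers summed to 0.313 to 0.841 CPM in vitro, with 5 of 10 at 0, Pax5 among them. Precursors of other lineages were also near 0 in vitro: B cell precursor markers summed to 0.308 to 0.521 CPM with 4 of 6 at 0 (Dntt and Rag1 among them), erythroid markers to 0.641 to 0.925 CPM with 4 of 10 at 0, and granulocyte markers to 0.141 to 2.48 CPM with 7 of 10 at 0 (Elane and Mpo among them). Ex vivo these 3 lists summed to 0.511 to 1.01, 2.07 to 4.37 and 2.16 to 10.01 CPM.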

How the data were processed

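RNA-seq was available for 8 libraries in 4 groups of 2. The authors' raw counts per gene (27179 genes, 565 without a symbol) were deposited as 1 matrix with a gene length in bases. The deposited log2 RPKM files hold 12372 genes and none of the 433 tested X- and Y-linked genes. Subread, featureCounts, limma and the build GRCm38 (mm10) are named in the submitters' processing notes; their versions, roles and strand setting are not given in the sources used here.

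Counts were tested with edgeR 4.0.16 in R 4.3.3: filterByExpr by group (minimum count 10, minimum total 15) kept 13184 genes, TMM scaling was used, and glmQLFit and glmQLFTest were fitted to all 8 libraries with 1 mean per group. Adjusted p-values are Benjamini-Hochberg values over the 13184 genes, and genes at 0.05 or below passed. CPM are TMM-scaled, and each standard error (SE) was derived from the log2 fold change and its F statistic. The steps were tested on simulated data. Alternatives used DESeq2 1.42.0, limma 3.58.1, other scaling and filters, a fit of the compared groups alone, a replicate block, removal of each library's trend in length and base composition (spline, 4 df, 11976 genes), no X- and Y-linked genes, and each library left out.

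The members and lists were chosen with earlier results of these data known. Named genes were the 2 members of each role with the highest mean CPM, the 8 with the lowest p between genotypes in vitro, and up to 4 of each other list with the lowest p. Replicates of a group differed beyond counting noise (chi-square per degree of freedom 5.70 to 32.1).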

Additional observations from a re-analysis of the deposited data

How the results depend on the processing

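Over all alternatives, 33 to 39 replication genes (main 34) passed for culture in CIS-/- cells and 35 to 40 (main 36) in wild-type cells. Of all tested genes 52.2% to 77.2% passed in CIS-/- and 45.6% to 73.2% in wild-type cells. The interaction gave 0 replication genes in each alternative run. Between genotypes in vitro the main count was 4, where 25.6% of all tested genes passed. It was 8 (1 higher, 7 lower, adding Mcm10, E2f2, Uhrf1 and Chaf1a) in a fit of the compared groups alone, where 25% of all genes passed. It was 6 with RLE scaling (26.9% of all genes) and with DESeq2 (27.4%). With each library left out the median log2 fold change of the 42 in vitro lay between -0.01 and 0.13. Ex vivo the count ranged over 0 to 1 when each library was left out. Gins4 on culture in CIS-/- cells turned to -0.14 (adjusted p = 0.0955) with the length trend removed, and to -0.14 (0.135) with the replicate block added. The causes were not tested beyond the settings themselves. Library totals shifted the median of all genes to -0.13 between genotypes in vitro and -0.17 on culture in CIS-/- cells, and turned the members' median in vitro to -0.08.

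Same-numbered libraries of 2 groups deviated together with correlations of -0.232 to 0.146. With 1 replicate difference per group these values cannot show whether the numbers pair the samples, and the labels do not say. With the replicate number as a block the counts were 34 for culture in CIS-/- and 36 in wild-type cells, 3 between genotypes in vitro (Lig1 lost at -0.51, adjusted p = 0.0614, where 19.2% of all genes passed), 0 ex vivo and 0 for the interaction. A crossed pairing of the CIS-/- numbers, chosen after seeing the data, gave 35 for culture in CIS-/- cells. The lowest count of a listed gene in a library was 13 (Orc1), and 2 libraries per group with 4 residual degrees of freedom in all limit the precision.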

Other observations

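Of 14 listed brakes on G1/S, 6 rose and 8 fell on culture in CIS-/- cells, where 34.8% of all tested genes rose and 37.5% fell, and 6 rose and 5 fell in wild-type cells, where 32.1% rose and 31.6% fell. Cdkn1a, the p21 inhibitor of cyclin-dependent kinases, averaged 139.5 CPM in CIS-/- in vitro libraries, against 9.29 CPM in CIS-/- ex vivo, and 75.8 CPM in wild-type in vitro, against 6.22 CPM in wild-type ex vivo libraries. It rose by 3.90 (SE 0.163, edgeR adjusted p = 4.47e-07) and 3.60 (SE 0.165, 8.97e-07) on the log2 scale. Cdkn2b, an inhibitor of CDK4 and CDK6, rose by 6.32 (SE 0.229) in CIS-/- and 5.55 (SE 0.24) in wild-type cells, and Cdkn2c, another of that family, by 1.33 and 1.67. Cdkn2a had 1773 counts in vitro and 3 ex vivo in CIS-/- cells, a ratio after scaling of 547 (exact 95% counting interval 187 to 2655), and 1451 against 2 counts in wild-type cells, a ratio of 622 (172 to 5144). These intervals cover counting error only. In vitro Cdkn2b (34.3 CPM in CIS-/- against 15.5 CPM in wild-type libraries) rose by 1.15 (SE 0.152, adjusted p = 0.0041) and Cdkn1a by 0.88 (SE 0.14, 0.00612). In all, 2 of the 14 genes were higher and 2 lower in CIS-/- cells in vitro (14.3% each), where 11% and 14.6% of all tested genes were. Rbl2, an RB-related repressor, fell by 0.64 (SE 0.118, adjusted p = 0.00934), and Tob1, an antiproliferative gene, by 0.52 (SE 0.134, 0.0254). The 2 that fell both lost the threshold without CIS-/- in vitro replicate 2 or without wild-type in vitro replicate 1, in fits where 3.7% and 6.41% of all tested genes passed.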
